A study of Homo sapiens with 8 samples.

Results

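The snaR family of small noncoding RNAs was examined in DLD1 cells, an established human colorectal cancer line with the CpG island methylator phenotype. Members were all noncontrol probes of the array whose gene name begins with SNAR-, which gave 13 of the 50599 probes and 12 gene names. The family was chosen by its measured change: several of its probes were among those that rose most with TSA in siCONT cells and with both treatments together. Its values in those comparisons, and in others that reuse the same contrast, are therefore a description without a test, and tests on single members are given only for UHRF1 depletion within an agent.

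snaRs are short structured transcripts of RNA polymerase III that were found bound to proteins with affinity for double-stranded RNA. Their genes descend from Alu-like elements and lie mostly in clusters on chromosome 19, where copies can be nearly identical. They are known for being abundant in testis and in many immortalized lines and scarce in most other tissues. RNA polymerase III reads such genes from a promoter inside the transcribed part, whose B box is bound by the initiation factor TFIIIC.

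Cells received a control siRNA (siCONT) or 1 of 2 siRNAs against UHRF1 (siUHRF1-1 and siUHRF1-2) for 48 h, followed by ethanol (mock) or 300 nM trichostatin A (TSA) for 24 h. UHRF1 guides the maintenance DNA methyltransferase DNMT1 to replicated DNA, and TSA inhibits histone deacetylases. The 8 arrays form 4 groups of 2, in which either kind of siRNA (siCONT or siUHRF1) met either agent (mock or TSA). The combination below means siUHRF1 with TSA. In each depleted group the arrays carry different siRNAs, so that their spread also holds the difference between siRNAs, and depletion by siRNA is transient and partial. A level is the log2 intensity of a probe minus the 75th percentile of its array, so that differences between levels are log2 fold changes, and levels of different probes are not compared with each other.

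The brighter UHRF1 probe kept 31.9% (siUHRF1-1) and 24.8% (siUHRF1-2) of the siCONT signal under mock, and 16.7% and 11.1% under TSA. Both siCONT arrays of an agent differed by about the noise between repeated spots (1.16 times under mock and 1.08 times under TSA), against 12.5 and 10.3 times for the siUHRF1 arrays, and were counted as 1 sample in means, which carry no SD. Mock and TSA arrays lay in different rows of the slide, so agent and row cannot be told apart. All 10 colon epithelium markers (EPCAM, CDH1, KRT8 and others) were well above background on every array. Of these, LGALS4, which encodes galectin-4, had log2 levels of 1.87 and 2.05 in siCONT with mock, 5.04 and 5.09 after depletion, and −1.63 and −1.59 in siCONT with TSA. It rose with depletion under mock (limma adjusted p 0.00198, or 0.0621 with the siCONT arrays averaged to 1 sample) and fell by 3.57 with TSA in siCONT (0.000132). VIL1, the gene of villin, fell by 1.42 with TSA in siCONT (limma adjusted p 0.0267, or 0.282 with averaged siCONT arrays). With depletion under mock VIL1 changed by 1.42 and was not called (limma adjusted p 0.0669). No other colon marker was called in these comparisons, and some moved the opposite way. Over the 10, the median was −0.001 and the lowest change −0.58 with depletion under mock. With TSA in siCONT the median was −0.07 and the highest change 0.52. Of the markers of other cells, 0 of 6 for fibroblasts, 1 of 3 for leukocytes (CD14) and 0 of 4 for endothelium were well above background on every array. In each of these lists 2 were so on none, among them PTPRC and PECAM1. Both COL1A1 and VWF rose with TSA in siCONT, at least 3.07-fold (adjusted p 0.00399) and at least 8.03-fold (adjusted p 0.000384), respectively (limma, Benjamini-Hochberg). For COL1A1 the call was lost with normexp background correction (change 0.66) and with averaged siCONT arrays (adjusted p 0.108). VWF was also at least 3.20-fold higher with depletion under mock (adjusted p 0.00743), a call that was lost with normexp, where the change was 0.55, and with averaged siCONT arrays (adjusted p 0.141). Whether these moves have a part in the values below was not tested. In bulk RNA, a different amount of RNA per cell cannot be told apart from a different number of cells that hold it.

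The probe sequences showed first what each member of the family can measure. By shared stretches of 8 bases with the SNAR-B2 probe (at least 8 stretches), 7 probes held snaR sequence in the sense of the transcript, whereas 0 of the 50586 probes of other names reached that number. The cut was placed with these counts known, so the 0 is not a test of specificity. SNAR-G1 had the fewest of the 7, with 8 stretches, and the most on a probe of another name was 7. The 7 snaR probes are shown 5′ to 3′ as the array files list them, with the letters of the B box core GTTCNANNC in capitals. The SNAR-I probe, whose match to snaR sequence is on the other strand, and the SNAR-C4 probe, which holds none, follow for comparison.
SNAR-A3: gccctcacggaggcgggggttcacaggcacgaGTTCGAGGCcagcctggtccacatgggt
SNAR-B2: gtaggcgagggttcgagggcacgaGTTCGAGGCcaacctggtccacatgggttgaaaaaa
SNAR-D: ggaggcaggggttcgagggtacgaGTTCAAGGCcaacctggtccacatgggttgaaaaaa
SNAR-F: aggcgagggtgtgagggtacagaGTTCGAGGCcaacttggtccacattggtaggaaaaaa
SNAR-G1: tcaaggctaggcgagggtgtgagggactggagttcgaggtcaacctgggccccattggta
SNAR-G2: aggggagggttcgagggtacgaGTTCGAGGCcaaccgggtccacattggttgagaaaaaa
SNAR-H: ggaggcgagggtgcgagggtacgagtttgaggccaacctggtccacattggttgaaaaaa
SNAR-I: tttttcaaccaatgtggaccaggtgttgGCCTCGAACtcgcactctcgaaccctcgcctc
SNAR-C4: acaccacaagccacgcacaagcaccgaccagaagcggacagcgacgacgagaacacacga

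The 7 snaR probes were identical to each other at 76.8% to 91.7% of the aligned bases, the extremes being SNAR-G1 with SNAR-A3 and SNAR-B2 with both SNAR-D and SNAR-H. The files assign the SNAR-A3 probe to 4 RefSeq genes (SNAR-A3, SNAR-A4, SNAR-A5 and SNAR-A7) and the SNAR-B2 probe to 4 as well (SNAR-B2, SNAR-B1, SNAR-C3 and SNAR-C4), so that each of these reports on a set of copies. With so much shared sequence, signal of 1 snaR on the probe of another was not measured, and the 7 probes are not independent of each other. The B box core lay in 5 of the 7 probes, compared with 0.891% of all 50599 probes on the probe strand and 1.84% on either strand; these letters are not in the SNAR-G1 and SNAR-H windows. A run of 6 A at the 3′ end closed 5 of the 7 probes (not SNAR-A3 or SNAR-G1), as it did 0.731% of all probes. Among probes of other genes with such an end, the median change with TSA in siCONT was −0.19 and 16.0% were called, against −0.11 and 18.6% over all other probes tested.

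In hg19 coordinates of the files, the snaR probes lie on chromosome 19 apart from that of SNAR-H. SNAR-A3 was placed at chr19:48427077-48427136. SNAR-G2 (chr19:49534934-49534993) and SNAR-G1 (chr19:49540322-49540381) are neighbours within the LHB and CGB gonadotropin cluster. SNAR-B2 (chr19:50637012-50637071) and SNAR-D (chr19:50643469-50643528) are also neighbours, and SNAR-F follows at chr19:51108271-51108330. SNAR-H lies at chr2:78182044-78182103 and SNAR-I at chr3:190595730-190595789. All are genes of noncoding RNAs, so that the probes lie in no coding sequence of the genes they are named for.

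The other 6 probes carried a SNAR name without measuring a snaR in the sense orientation. The SNAR-I probe stayed dark, not well above background, on all 8 arrays (intensity at most 8.83). Among the 5 probes that hold no snaR sequence, those named SNAR-B1, SNAR-C3, SNAR-E and a second one named SNAR-G1 were likewise dark on all 8 arrays, with intensities between 2.99 and 14.6. SNAR-C4 was above background on 7 arrays at intensities between 17.6 and 43.8. Its level changed by −0.65 with UHRF1 depletion under mock (SE 0.34, limma adjusted p 0.249) and by −0.04 under TSA (SE 0.34, limma adjusted p 0.945), and its siCONT mean was −2.18 under mock and −2.24 under TSA. Only the 7 probes with snaR sequence are followed below as snaR probes.

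On these probes the levels stood in the same order over the 4 groups, lowest in siCONT with mock, then UHRF1 depletion alone, then TSA alone, and highest with both. SNAR-G2, beside the CGB genes, had levels of 1.32 and 1.30 on the siCONT arrays with mock, 2.23 (siUHRF1-1) and 4.10 (siUHRF1-2) after depletion, 6.79 and 6.77 in siCONT with TSA, and 6.93 and 7.80 after depletion with TSA. The TSA arrays lay far above all mock arrays, and under either agent siUHRF1-2 gave the highest value.

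SNAR-D showed the same order, with 2.65 and 2.59 in siCONT with mock, 3.44 and 5.46 after depletion, 7.92 and 7.89 in siCONT with TSA, and 8.04 and 8.87 after depletion with TSA. SNAR-H, the copy on chromosome 2, had 2.03 and 1.95, then 2.70 and 4.48, then 7.05 and 7.04, then 7.17 and 8.06 over the same groups. For both, the groups did not overlap, and siUHRF1-1 with TSA stood close to siCONT with TSA.

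SNAR-F had levels of −0.13 and −0.35 in siCONT with mock, 0.48 and 2.26 after depletion, 5.06 and 4.97 in siCONT with TSA, and 5.23 and 6.57 after depletion with TSA. SNAR-A3, which stands for the SNAR-A copies, had 4.21 and 4.26, 4.72 and 6.57, 8.85 and 8.97, and 9.03 and 9.81. SNAR-B2, which stands for SNAR-B and SNAR-C copies, had 3.58 and 3.50, 4.30 and 6.18, 8.59 and 8.52, and 8.64 and 9.38. In these 3 sets, too, every group lay above the one before it without overlap. This order without overlap, which includes the comparisons that picked the family, was seen for 7 of the 7 snaR probes and for 2.11% of 24591 probes above background in a group. For SNAR-G1 this order rests in part on spots not well above background in siCONT with mock.

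The SNAR-G1 probe had the same order of groups with other steps. It was not well above background in siCONT with mock (−3.68 and −3.59), lay at −2.97 and −1.92 after depletion and at −0.51 and −0.43 in siCONT with TSA, and reached 0.87 and 2.84 after depletion with TSA. For this probe alone of the 7, siUHRF1-1 with TSA stood clearly above siCONT with TSA.

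**Figure D1:**
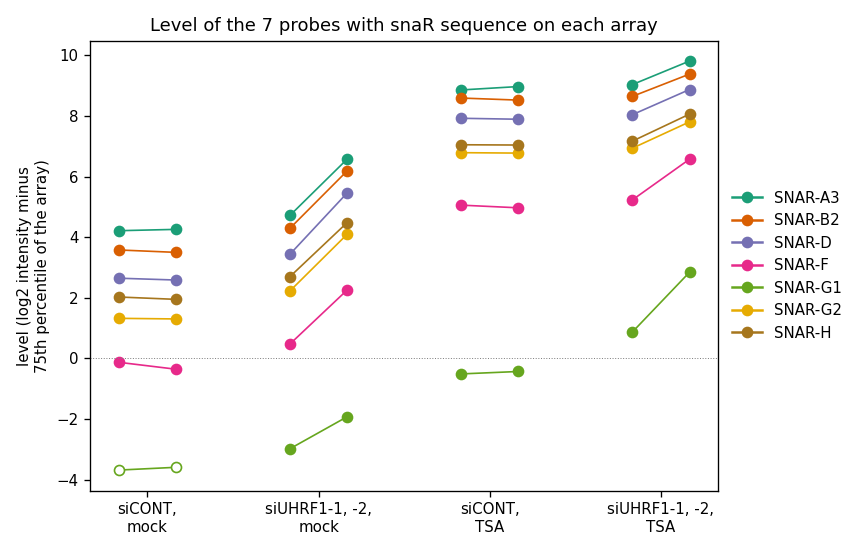
Level (log2 intensity minus the 75th percentile of the array, y axis) of the 7 probes with snaR sequence on each of the 8 arrays, by group (x axis). Each point is 1 array, lines join both arrays of a group (array 1 left and 2 right), and open circles mark spots not well above background. In the depleted groups the right-hand point is siUHRF1-2, which lies above siUHRF1-1 for all 7 probes, by 1.05 to 2.02 under mock and by 0.73 to 1.97 under TSA.

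The effect of UHRF1 depletion alone was examined first, by comparing siUHRF1 with siCONT under mock. The fitted change of the 6 snaR probes above background in both groups lay between 1.41 (SNAR-A3) and 1.85 (SNAR-G2), against a median of −0.10 over the 22396 probes tested. SNAR-G1 passed the filter on dim probes only through the depleted arrays, so it had only a bound, at least 1.93-fold higher there. Both depleted arrays were above both siCONT arrays for each of the other 6 probes, as they were for 25.3% of all tested probes. SNAR-G1 is left out of this count, because it entered through its depleted arrays. No SNAR probe passed the test at an adjusted p under 0.05 and 2-fold (0 of 8 tested with limma, against 4.12% of all tested probes), and 5 had an unadjusted p under 0.05, as did 30.7% of all tested probes. SNAR-G2 went from 1.31 to 3.16 ± 1.32 (SD, n = 2 siRNAs), a change of 1.85 with a 95% confidence interval of 0.40 to 3.29 (limma adjusted p 0.101). For SNAR-A3 the change was 1.41, with an interval of −0.00297 to 2.83 (limma adjusted p 0.164).

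The spread between the siRNAs was large in this comparison. Relative to siCONT with mock, siUHRF1-1 gave changes between 0.49 (SNAR-A3) and 0.92 (SNAR-G2) on these 6 probes, which are 1.40-fold and 1.89-fold. The other siRNA gave between 2.34 (SNAR-A3) and 2.84 (SNAR-D), which are 5.06-fold and 7.16-fold. The siRNAs differed by 1.78 to 2.02 on each of the 6, whereas the SD of that difference over 19900 probes above background on all arrays was 0.49. Leaving out the siUHRF1-1 array with mock left 1 depleted sample, and the changes of the 6 were then those of siUHRF1-2, 2.34 to 2.84. Without the siUHRF1-2 array they were those of siUHRF1-1, 0.49 to 0.92. Such fits hold no spread between siRNAs under mock, so only the changes are given. With the siCONT arrays of an agent averaged to 1 sample, the adjusted p of the 6 probes lay between 0.583 and 0.642, and 0.0223% of all tested probes passed.

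**Figure D2:**
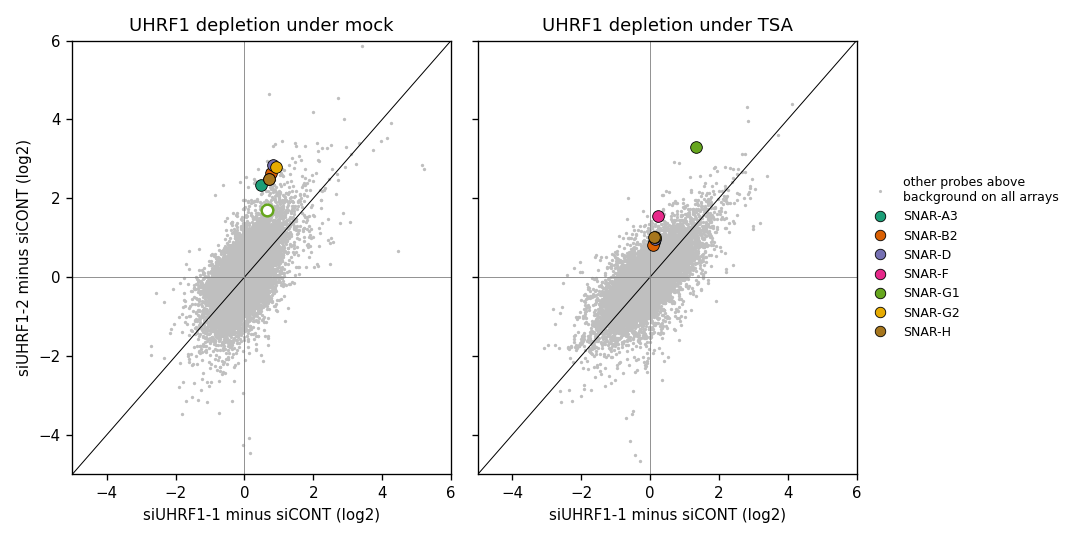
Change against siCONT with siUHRF1-1 (x axis) and siUHRF1-2 (y axis), in log2, under mock (left) and TSA (right). Each coloured point is 1 snaR probe, grey points are all other probes well above background on all arrays, and the diagonal marks equal change; all 7 snaR probes lie above it, and SNAR-F is hidden by SNAR-H under mock, where both lie near 0.72 and 2.50, and most probes overlap under TSA. The open circle is SNAR-G1, which was not well above background in siCONT with mock, so that its place there is not a measured change.

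The same comparison under TSA asked what depletion adds once histone deacetylases are inhibited. Changes were between 0.46 (SNAR-B2) and 0.89 (SNAR-F) for 6 of the snaR probes and 2.33 for SNAR-G1, with a median of 0.00 over all 23846 probes tested. Both siUHRF1 arrays again exceeded both siCONT arrays on 7 of the 7 probes, and on 35.0% of all tested probes. The siUHRF1-1 array added 0.09 to 0.22 to the 6 probes and the siUHRF1-2 array 0.82 to 1.56, while SNAR-G1 gained 1.34 and 3.31. None of the SNAR probes was called (0 of 8 tested with limma, against 8.27% of all probes). An unadjusted p under 0.05 was seen for 1 of them, as for 34.7% of all tested probes. That SNAR probe was SNAR-G1, which went from −0.47 to 1.86 ± 1.39 (SD, n = 2 siRNAs), a change of 2.33 with a 95% confidence interval of 0.76 to 3.90 (limma adjusted p 0.0562). For SNAR-D the change was 0.55, with an interval of −0.98 to 2.08 (limma adjusted p 0.571), which allows a rise of about the size seen under mock. These intervals, too, count both siCONT arrays as separate samples and may be too narrow. The call for SNAR-G1 changes with the settings: it passed with the siRNA or replicate number as a block (limma adjusted p 0.0396) and with normexp background correction (1.91, limma adjusted p 0.0316). Without the siUHRF1-1 array with TSA, which leaves 1 depleted sample under that agent, its change was 3.31. In the fit with the siCONT arrays averaged, SNAR-G1 had the lowest adjusted p of the family, 0.348, and 0.692% of all probes were called.

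These depletion comparisons share their siCONT arrays with those that brought the family up, and the comparison under TSA shares its depleted arrays with them as well. Their directions and tests are therefore not independent of the choice of members. The brightest snaR spots neared the top of the scale under TSA. SNAR-A3 had between 44.1% and 84.3% of the highest intensity on the TSA arrays, where 4 to 68 probes were brighter, and no spot was saturated. What this does to the changes under TSA was not tested.

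With TSA in siCONT cells, the level of the 6 snaR probes other than SNAR-G1 was higher by 4.68 (SNAR-A3) to 5.47 (SNAR-G2), or 25.5-fold to 44.2-fold. SNAR-G1 was at least 7.61-fold higher. In UHRF1-depleted cells the change with TSA was smaller for these 6, 3.77 to 4.53 (13.6-fold to 23.1-fold), and 4.31 for SNAR-G1. By siRNA, the 6 probes gained 4.31 to 4.75 in cells with siUHRF1-1 and 3.19 to 4.31 in cells with siUHRF1-2. In the latter they had started higher.

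The combination, set against siCONT with mock, gave changes of 5.18 (SNAR-A3) to 6.14 (SNAR-F) for the 6 probes, which are 36.4-fold to 70.6-fold. SNAR-G1, dark in siCONT with mock, was at least 38.2-fold higher. The effect of depletion under TSA minus that under mock, which is 0 where depletion and TSA add up on the log2 scale, was negative for the 6 probes (−1.28 for SNAR-D to −0.72 for SNAR-F). For SNAR-G1 the value was of the other sign, 1.14, but it rests on spots not well above background in siCONT with mock. This difference contains the comparison that picked the family and is given as a description only.

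Genes of the proteins that hold or process snaRs and other double-stranded RNA were examined next. In the list of 15, all well above background on every array, 0 were called higher by limma in any of the 6 comparisons. In the combination 3 were called lower, where 25.6% of all probes were called in either direction. With depletion under TSA (8.27% of all probes), with TSA in depleted cells (20.7%) and for the difference between the depletion effects (4.89%), 1 each was called lower. ILF2, which encodes the RNA-binding protein NF45, changed by −0.80 with TSA in siCONT and by −0.79 in the combination, both short of 2-fold.

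The genes called in this list were DICER1, XPO5, DROSHA and DGCR8. In the combination, DICER1, which cuts precursor microRNAs, fell by 1.43 (limma adjusted p 0.000756), the export factor XPO5 by 1.32 (0.0154) and DROSHA, the nuclear RNase, by 1.08 (0.00181). DICER1 was also lower with depletion under TSA (−1.18, limma adjusted p 0.00721), and DGCR8, the partner of DROSHA, fell by 1.05 with TSA in depleted cells (limma adjusted p 0.00335). The median of the list was −0.59 in the combination, against −0.14 over all probes tested there. XPO5 rests on the probe used, since its other probes changed by −0.51 and −0.67 in the combination.

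RNA polymerase III itself was then examined. Of 17 subunit genes, 0 were called higher and 1 lower by limma with TSA in siCONT, and 1 and 2 in the combination, against 18.6% and 25.6% of all probes called in either direction. As for all lists and neighbours here, these fits count both siCONT arrays of an agent as separate samples. Those arrays differed by about spot noise, so the p-values and calls, and the shares over all probes, may rest on technical spread. POLR3K fell by 1.12 with TSA in siCONT (limma adjusted p 0.00155) and by 1.39 in the combination (0.000449). Also in the combination, POLR2L, a subunit shared with the other polymerases, rose by 1.03 (limma adjusted p 0.0105) and POLR3F fell by 1.02 (0.0445). With depletion under TSA, POLR3F fell by 1.28 (limma adjusted p 0.0464). In TSA-treated depleted cells POLR3D rose by 1.26 and POLR1D by 1.14 against mock, with limma adjusted p of 0.0224 and 0.00325, while POLR3K fell by 1.78 and POLR3F by 1.14. The other POLR1D probe moved by −0.62. Under depletion alone 0 of the 17 were called, against 4.12% of all probes. The list median was 0.04 with TSA in siCONT and 0.21 in the combination.

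Among the 19 genes of initiation factors and the repressor MAF1, 0 were called with TSA in siCONT or with depletion under either agent. Of all probes, 18.6% were called with TSA in siCONT, and 4.12% and 8.27% with depletion under mock and TSA. GTF3C6, a subunit of TFIIIC, fell by 1.58 with TSA in depleted cells (limma adjusted p 0.000384) and by 1.45 in the combination (0.00039), and was the only gene called. The changes in the list lay between −0.81 and 0.86 with TSA in siCONT, with a median of −0.28 against −0.11 over all probes tested.

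Other RNA polymerase III transcripts provided the closest comparison by class of RNA. Of 17 in the list, 9 had a probe, and 0 of the 7 to 8 tested were called in any of the 6 comparisons. Over all tested probes, between 4.12% and 25.6% were called in these comparisons. Their median was −0.34 with TSA in siCONT and 0.18 in the combination, and their largest change in the latter was 0.77. RN7SL1, the RNA of the signal recognition particle and the relative of Alu elements, had levels of 10.15 and 10.12 in siCONT with mock, 9.68 and 9.64 with TSA, and 9.78 and 9.68 after depletion with TSA. RN7SK, which holds the elongation factor P-TEFb inactive, changed by −0.51 with TSA in siCONT and by −0.34 in the combination. The change with TSA in siCONT was 0.05 for RMRP and 0.22 for RPPH1, which are the RNAs of RNase MRP and RNase P, and 0.16 for the spliceosomal RNU6ATAC.

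The vault RNAs, of which VTRNA2-1 was above background on all 8 arrays, were not called either. VTRNA2-1 changed by −0.52 with TSA in siCONT and by −0.60 in the combination, and VTRNA1-1 by −0.34 and 0.14. VTRNA1-2 was above background on 4 arrays and was at least 1.87-fold higher with depletion under TSA, where it was not called (limma adjusted p 0.233). VTRNA1-3 was well above background on 1 array, which carried siUHRF1-1 with TSA. Transcripts of the class without a probe under their name, such as BCYRN1, itself derived from an Alu element, and the Y RNAs, were not analysed here.

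**Figure D3:**
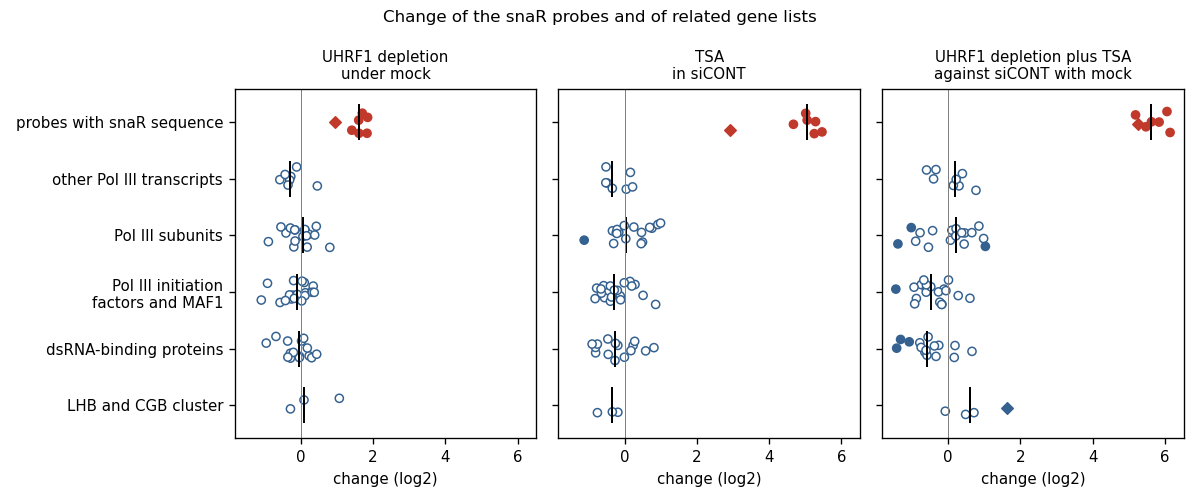
Change in log2 (x axis) of the 7 snaR probes (red) and of the genes tested in 5 lists (blue, 1 point per gene, by its brightest probe) in 3 comparisons. Filled blue points passed limma at an adjusted p under 0.05 and 2-fold, open ones did not, red points are all filled whatever their test, diamonds mark a lower bound against a group not above background (SNAR-G1 and, in the combination, CGB), and black bars are medians. The 6 snaR probes drawn as circles stand between 4.68 and 5.47 with TSA in siCONT, where the other RNA polymerase III transcripts stand between −0.52 and 0.22.

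The genes around the SNAR probes were examined as well. Within 100 kb of a SNAR probe lay 44 probes of 40 other genes. Among them, 2 lay near the SNAR-E probe, which holds no snaR sequence, and 4 near SNAR-I, whose match is on the other strand. For TSA in siCONT, 20 of the 44 probes were tested, including those near SNAR-E, which were not called. There, 4 were called higher and 3 lower, or 7 of 20, where 18.6% of all probes were called and 10.4% called higher, and the median was −0.14. The 4 comprised 3 probes of FTL (1.81 to 2.13), the ferritin light chain gene 70.4 to 71.5 kb from SNAR-G1, and C19orf81, which was dark in siCONT with mock and at least 2.42-fold higher. Those that fell were LIN7B (−2.17), GYS1 (−1.57) and SNRNP70 (−1.49), all in the SNAR-G region. Near SNAR-A3 and SNAR-H, 0 of 4 and 0 of 2 neighbouring probes were above background on any array.

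The LHB and CGB cluster, which encodes beta subunits of gonadotropins and holds SNAR-G1 and SNAR-G2, was given a list of its own with 10 genes, of which 6 had a probe and 3 to 4 were tested. LHB, 15.5 kb from SNAR-G2 and 20.9 kb from SNAR-G1, changed by −0.18 with TSA in siCONT and by 0.90 with depletion under TSA, short of 2-fold (limma adjusted p 0.0113). CGB (current symbol CGB3) had levels of −4.17 and −3.38 in siCONT with mock, −3.19 and −3.25 after depletion, −4.07 and −4.12 in siCONT with TSA, and −1.65 and −1.88 after depletion with TSA. It was at least 3.93-fold higher with depletion under TSA (limma adjusted p 0.00563) and at least 3.06-fold higher in the combination (0.0016). Both siCONT arrays with TSA left it dark, whereas SNAR-G1 and SNAR-G2 were well above background there. RUVBL2 and NTF4 in the same cluster were not called in any of the 6 comparisons.

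The genes nearest to the family in pattern were sought over the 8 arrays among 24580 probes. Each probe was compared with the mean of the 7 snaR probes after subtraction of its own mean over the arrays, by the root mean square (RMS) difference. The snaR probes themselves lay within 0.11 (SNAR-H) to 0.23 (SNAR-F and SNAR-G2) of that mean, except SNAR-G1 at 0.72. The 5 nearest other genes were LINC00319 (0.25), a noncoding RNA on chromosome 21, the keratin gene KRT9 (0.43), the collagen gene COL1A1 (0.44), SYNPO (0.48), which encodes an actin-binding protein, and ITLN1 (0.48), which encodes an intestinal lectin. They were chosen for this likeness, and the 8 arrays share a slide.

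LINC00319 had levels of −5.71 and −5.76 in siCONT with mock, −5.06 and −2.56 after depletion, −0.89 and −0.96 in siCONT with TSA, and −0.30 and 0.43 after depletion with TSA. As on the snaR probes, siUHRF1-2 lay above siUHRF1-1 under both agents, and the probe was at least 11.0-fold higher in the combination than in siCONT with mock. KRT9, COL1A1 and ITLN1 were also dark in siCONT with mock, and were at least 10.3-fold, 3.07-fold and 7.75-fold higher, respectively, with TSA in siCONT. KRT9 and COL1A1 were well above background on 4 of the 8 arrays and dark on both siUHRF1 arrays with mock. LINC00319 and ITLN1 were above background on 5. For these genes, the nearness to the family over the mock arrays rests in part on spots without a measured level. SYNPO went from −2.93 and −3.21 to 1.72 and 1.67 with TSA in siCONT, and differed from the family in that siUHRF1-1 with TSA, at 0.81, lay below siCONT with TSA.

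**Figure D4:**
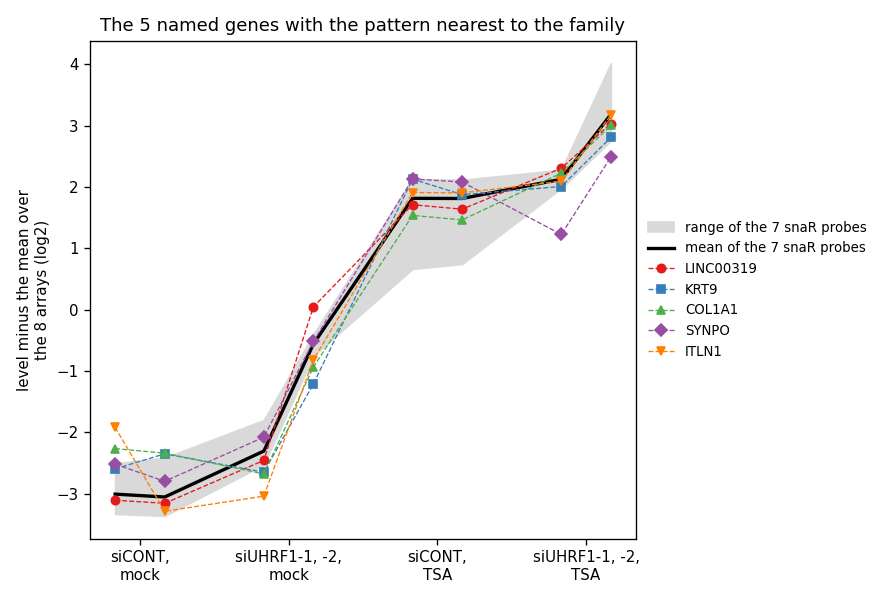
Level minus the mean over the 8 arrays (log2, y axis) on each array, by group (x axis; array 1 left and 2 right), for the mean of the 7 snaR probes (black), their range (grey band) and the 5 named genes nearest to them (dashed lines, which join arrays only to guide the eye). The 5 genes lie within an RMS difference of 0.25 to 0.48 of the black line. Most mock points of LINC00319, KRT9, COL1A1 and ITLN1 are spots not well above background, which are not marked.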

How the data were processed

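The deposited files held, per the file headers, a processed, linear intensity for each spot (Cy3, Agilent Feature Extraction 10.7.3.1), background-subtracted by the authors' extraction and not scaled between arrays. A series matrix deposited by the authors holds the same intensity per probe (0.995 to 1.00 times). Control and outlier spots were left out here, spots of a probe were averaged, and log2 values were centred on the 75th percentile of each array. The 4 group means were fitted with limma 3.58.1 (R 4.3.3, 8 arrays, two-sided, 4 residual and 2.17 prior degrees of freedom). A probe was tested if well above background on both arrays of a compared group, and called when it changed at least 2-fold with an adjusted p (Benjamini-Hochberg) below 0.05. An "at least" fold sets the bright group against the higher of each dim array's own signal and its lowest signal well above background. The fit was checked on simulated data. Neither labels nor methods say whether siCONT arrays came from separate cultures, so p-values may measure technical spread. The study's methods name t-tests, run here as an alternative. Array number limits precision. Identifiers of 28174 probes (55.7%) matched RefSeq. Named were all SNAR probes, the 5 genes nearest in pattern, neighbours within 100 kb, ILF2, measured RNA polymerase III transcripts, and up to 4 called genes per list and comparison, by a gene's brightest probe; other markers are named for detection only. Some list and neighbouring genes are not reported here and were left out of the counts. Members and lists were chosen with earlier results of these data known. Sequences were compared with Biopython 1.88.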

Additional observations from a re-analysis of the deposited data

Results flagged for a closer look

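With groups of 2 arrays no array could be tested for standing apart. Among the genes set beside the family, 7 were called by limma for a difference between the depletion effects under TSA and mock, at an adjusted p under 0.05 and 2-fold. In the same fit, 4.89% of all 24591 probes tested were called. The effect under TSA minus that under mock was −1.23 for DGCR8 (adjusted p 0.0356), 1.78 for CGB (0.0464), 1.28 for C19orf73 (0.0216) and 1.03 for DHDH (0.0441). In the marker lists it was −1.50 for LGALS4 (0.0193), −1.35 for CDH17 (0.0307) and −1.76 for VWF (0.0441). C19orf73 rests on the probe used, since its other probe gave 0.62 and was not called (limma adjusted p 0.0675). As CGB and VWF were not well above background in siCONT with mock, their differences rest on spots without a measured level. With the siCONT arrays averaged to 1 sample, 0 of all 24587 probes tested were called for this difference by limma, and 2116 had an unadjusted p under 0.05 and 2-fold.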

How the results depend on the processing

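Array number and the spread between the siRNAs limit the depletion results. Leaving out 1 array at a time, 0 to 6 SNAR probes were called under mock and 0 to 1 under TSA; the 6 came without the siUHRF1-1 array with mock and the 1, SNAR-G1, without the siUHRF1-1 array with TSA. Under TSA, SNAR-G1 was also the 1 probe called with normexp background correction (1.91, limma adjusted p 0.0316). With the replicate block it was again the 1 called (2.33, limma adjusted p 0.0396), and the block called 0 under mock. The replicate numbers do not pair siCONT with siUHRF1 arrays (correlation of deviations −0.06 and 0.02 within an agent), but siUHRF1 arrays of the same siRNA deviated together (0.34). Apart from the fits without 1 array, no SNAR call of the depletion comparisons changed over the other settings run. By the methods' t-test the 6 snaR probes other than SNAR-G1 had p between 0.186 and 0.267 under mock, and adjusted between 0.411 and 0.481.

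The median change of the snaR probes with TSA in siCONT, 5.05, was 4.98 with normexp, 5.31 with quantile normalization, 5.19 with the percentile over probes detected on all arrays, 5.01 with median scaling, 5.15 over the 6 probes well above background on all arrays, and 5.02 to 5.09 leaving out 1 array. The difference between depletion effects for VWF turned from −1.76 to 0.13 with normexp; the cause was not tested. Median scaling moved the median of all probes in the combination from −0.14 to −0.54, and 8202 probes were then called, 2588 higher, against 6078 with 3453 higher. Calls over all probes under mock went from 923 to 301 with normexp, 406 with no filter on dim probes, 5 with averaged siCONT arrays and 0 with the adjusted t-test. For single genes outside the family that were called with the processing described above, 1422 values were compared over the settings. Of these, 226 lost their call, 1195 kept it and 1 reversed in sign.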
